A study of Mus with 8 samples.

Results

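Endothelial genes of the liver were examined in mouse liver RNA, in livers labelled LKB1 KO and livers labelled Control. The 34 genes were taken by symbol from a list of sinusoidal and general endothelial genes, which was drawn up with earlier results of these data known, and all 34 had a row among the 23185 named genes of the array. Of these, 16 were treated as sinusoid-specific and 18 as pan-endothelial. LKB1, the protein kinase encoded by Stk11, was absent in one group by label and present in the other, and 4 arrays were run per group. Every liver was collected 48 h after partial hepatectomy, the removal of part of the liver, which both groups had undergone. The sources used here give neither the age, sex and strain of the mice, nor how LKB1 was removed or from which cells. Each value is a log2 expression level that the authors normalized with robust multi-array averaging.

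The sinusoids are the capillaries of the liver. Their endothelial cells have open pores and no continuous basement membrane, and they clear macromolecules and immune complexes from blood through scavenger and lectin receptors. They also send signals to hepatocytes, among them Wnt ligands near the central vein and BMP ligands that control hepcidin. Other genes, such as those of the VE-cadherin junction, the angiopoietin receptors and the VEGF receptors VEGFR1 and VEGFR2, are used by endothelium in most vessels.

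The targeted gene Stk11 averaged 4.25 ± 0.41 log2 units in LKB1 KO livers and 6.64 ± 0.13 in Control livers (SD, n = 4 each), and no array went against its label. Correlations between arrays lay between 0.960 and 0.988, with LKB1 KO 2 and Control 4 least like their own groups (mean correlations of 0.974 and 0.976). A background gauge of 3.73 log2 units was taken from 1350 olfactory and vomeronasal receptor genes, as the 95th percentile of their mean levels. The means of 31 endothelial genes over all arrays lay above it, and those of Wnt9b, Sox17 and Dll4 lay below. Sox17 was below it in all 8 arrays. The sinusoid markers Clec4g and Stab2 and the VEGF receptor gene Kdr stood above the gauge in every array.

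Most endothelial genes had a lower mean in LKB1 KO livers, and 5 of the 34 fell past the test while 0 rose. The 5 were Clec4g, Mrc1, Gpr182, Fcgr2b and Kdr, with levels 1.61-fold to 1.80-fold lower. At an unadjusted p under 0.05, 15 were lower and 2, Wnt9b and Nos3, were higher. Of all 23185 genes, 1770 were lower and 1344 higher at that threshold. Across the whole array 1.49% of genes fell and 0.487% rose, 1.98% in all (limma, adjusted p under 0.05 over 23185 genes). Among the 11943 genes with a mean above the background gauge, 2.85% fell. A lower mean was seen in 29 of the 34, where 47.1% of all genes and 52.7% of genes above the gauge had one. The count of falls was 2 without LKB1 KO 1, LKB1 KO 3 or Control 2, 3 without LKB1 KO 2, LKB1 KO 4, Control 1 or Control 3, and 5 without Control 4, and Clec4g and Mrc1 were among them each time. The median difference of the 34 was -0.38 log2 units, beside 0.02 over all genes and -0.02 over genes above the gauge. In whole liver RNA, fewer cells of a type and less RNA per cell cannot be told apart.

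**Figure D1:**
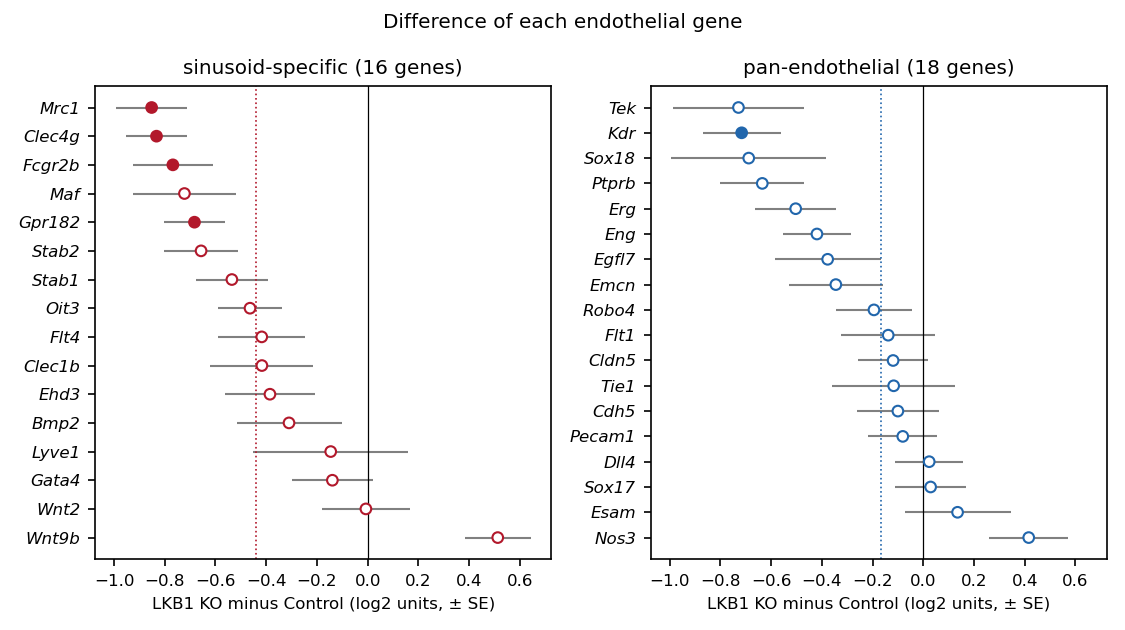
Difference of each endothelial gene, LKB1 KO minus Control, in log2 units (points, with SE as bars), for 16 sinusoid-specific and 18 pan-endothelial genes. Filled points passed the test (limma, adjusted over 23185 genes), and dotted lines mark the class medians of -0.44 and -0.17. Filled points are 4 on the sinusoid-specific side and 1 on the pan-endothelial side.

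The sinusoid-specific genes held 4 of the 5 falls. Of the 16, 4 fell, 0 rose and 12 did not pass, and 15 had a lower mean in LKB1 KO livers. Over all genes 1.49% fell and 47.1% had a lower mean, and among genes above the background gauge 2.85% and 52.7%. At an unadjusted p under 0.05, 9 of the 16 were lower and 1 was higher. The median difference of the 16 was -0.44 log2 units. In 8 of them all LKB1 KO arrays lay below all Control arrays, and in 1, Wnt9b, all lay above. Over all genes such a gap was seen for 5.50% downwards and 3.34% upwards, and for 9.38% downwards among genes above the background gauge.

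Of the 7 scavenger and lectin receptor genes 3 fell past the test, Clec4g, Mrc1 and Fcgr2b, and 4 did not pass. A lower mean was seen in 7 of 7, where 1.49% of all genes fell and 47.1% had a lower mean. Clec4g encodes a C-type lectin of sinusoidal endothelium that binds glycans. Its log2 values were 7.93, 7.81, 7.78 and 7.75 in LKB1 KO 1 to 4, and 8.77, 8.48, 8.62 and 8.72 in Control 1 to 4. The groups were 0.55 log2 units apart at their nearest arrays. Clec4g (Entrez Gene 75863) fell by 0.83 log2 units (SE 0.12, 95% confidence interval -1.10 to -0.57), with a limma adjusted p of 0.00663. The fall passed with each array left out in turn, with an adjusted p of at most 0.0284.

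Mrc1, the mannose receptor gene, is used by sinusoidal endothelium and by macrophages. It measured 6.18, 6.15, 5.86 and 6.26 log2 units in LKB1 KO 1 to 4, against 7.16, 7.01, 6.93 and 6.75 in Control 1 to 4. The groups did not overlap, and LKB1 KO 3 was the lowest array. Mrc1 (Entrez Gene 17533) fell by 0.85 log2 units (SE 0.14, interval -1.16 to -0.54, limma adjusted p = 0.0123), or 1.80-fold, and passed with each array left out (adjusted p at most 0.0476). Fcgr2b encodes the inhibitory Fc gamma receptor, which takes up immune complexes in sinusoids and is also made by B cells and macrophages. It stood at 4.90, 4.69, 4.63 and 4.60 in LKB1 KO 1 to 4 and at 5.64, 5.48, 5.70 and 5.07 in Control 1 to 4. Control 4 lay closest to the LKB1 KO arrays. Fcgr2b (Entrez Gene 14130) fell by 0.77 log2 units (SE 0.16, limma adjusted p = 0.0353). Leaving out any array other than Control 4 ended that call, with an adjusted p up to 0.108.

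Stab2 and Stab1 encode stabilins, large scavenger receptors that clear hyaluronan and modified proteins. Stab2 gave 6.52, 6.08, 6.31 and 6.42 log2 units in LKB1 KO 1 to 4, against 7.23, 6.75, 6.92 and 7.05 in Control 1 to 4. All LKB1 KO arrays were lower, but the difference of -0.66 (SE 0.15) just missed the threshold (limma adjusted p = 0.0509). Stab2 passed when the dimmest genes were left out, with a trended and robust prior and with array weights, at an adjusted p down to 0.0393. Stab1, which macrophages also make, averaged 5.08 ± 0.10 in LKB1 KO livers and 5.62 ± 0.24 in Control livers (SD, n = 4 each). Its groups did not overlap either (difference -0.54, SE 0.14, limma adjusted p = 0.0989).

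Lyve1 and Clec1b showed wide spreads instead. Lyve1, a hyaluronan receptor gene of sinusoids and lymphatic vessels, gave 6.44, 6.24, 5.87 and 5.78 log2 units in LKB1 KO 1 to 4 and 5.53 to 7.12 across the Control arrays. The Control arrays enclosed all LKB1 KO arrays, with Control 2 lowest and Control 4 highest. The difference was -0.15 (SE 0.30, interval -0.82 to 0.53), and it was 0.15 without Control 4. Clec1b is known in platelets as the podoplanin receptor CLEC-2 and is made by sinusoids as well. It measured 3.639 to 4.075 in LKB1 KO and 3.803 to 4.808 in Control livers (difference -0.42, SE 0.20). LKB1 KO 4 lay below the background gauge, so the size of that difference is uncertain.

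**Figure D2:**
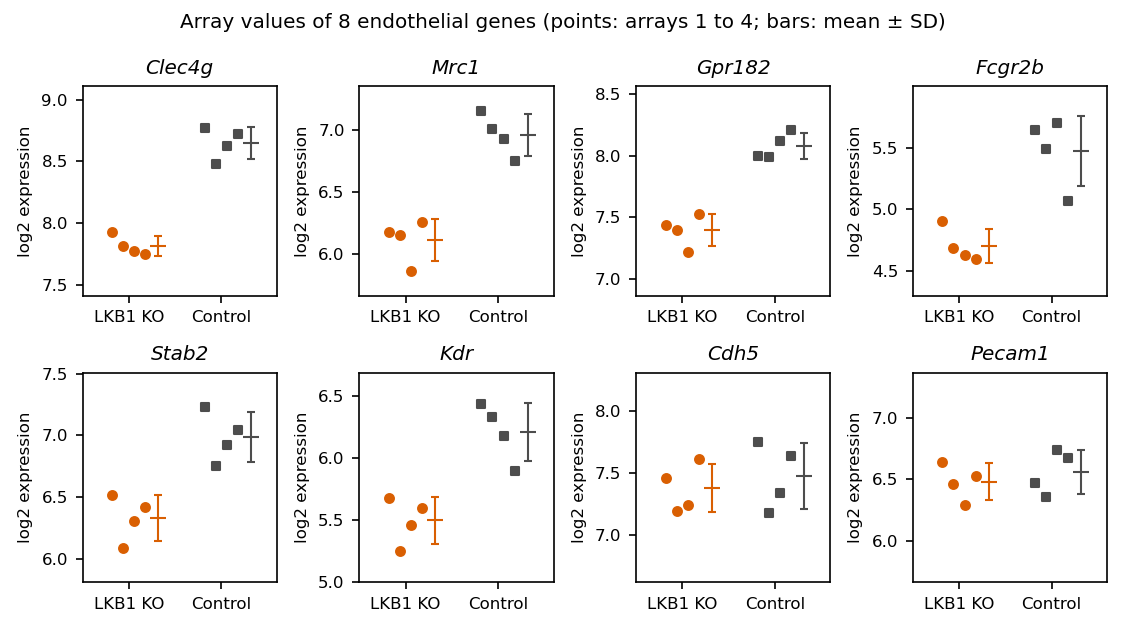
Log2 expression in each array for 8 endothelial genes, LKB1 KO (circles, left) and Control (squares, right), with the mean and SD beside the points. Each panel spans the same number of log2 units. The groups lie apart for Clec4g, Mrc1, Gpr182, Fcgr2b, Stab2 and Kdr, and overlap for Cdh5 and Pecam1.

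Among 4 other genes enriched in sinusoids, Gpr182 fell. It encodes an atypical receptor that scavenges chemokines. Its log2 values were 7.436, 7.395, 7.222 and 7.530 in LKB1 KO 1 to 4, against 7.996, 7.992, 8.119 and 8.207 in Control 1 to 4. The arrays of each group lay close together, and the groups were 0.46 log2 units apart. Gpr182 (Entrez Gene 11536) fell by 0.68 log2 units (SE 0.12, interval -0.95 to -0.41, limma adjusted p = 0.0191). That call ended without LKB1 KO 1, LKB1 KO 3 or Control 2 (adjusted p up to 0.0634).

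Oit3, a secreted protein gene used as a sinusoid marker, measured 5.67, 5.82, 5.85 and 5.92 log2 units in LKB1 KO 1 to 4 and 6.42, 6.09, 6.36 and 6.24 in Control 1 to 4. The groups did not overlap, and the difference of -0.46 (SE 0.12) did not pass (limma adjusted p = 0.0991). Flt4, the VEGF-C receptor gene VEGFR3, differed by -0.42 (SE 0.17), with LKB1 KO arrays from 5.05 to 5.46 and Control arrays from 5.41 to 6.07. Ehd3, an endocytic recycling gene, differed by -0.39 (SE 0.18). LKB1 KO 2 was the lowest Ehd3 array at 6.10, against 6.76 to 6.90 in the other LKB1 KO arrays and 6.85 to 7.13 in the Control arrays.

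None of the 3 ligand genes of sinusoidal endothelium passed the test, and 1, Wnt9b, was higher at an unadjusted p under 0.05. Wnt2 and Wnt9b encode Wnt proteins that central vein and sinusoidal endothelium supply to hepatocytes. Wnt9b measured 3.66, 3.92, 3.64 and 3.73 log2 units in LKB1 KO 1 to 4, against 3.41, 3.27, 3.06 and 3.15 in Control 1 to 4. All LKB1 KO arrays were higher (difference 0.51, SE 0.13, limma adjusted p = 0.0802), but all Control arrays and 2 of the LKB1 KO arrays lay below the background gauge. The size of that difference is therefore uncertain. Wnt2 averaged 4.02 ± 0.30 in LKB1 KO livers and 4.03 ± 0.21 in Control livers (SD, n = 4 each). The difference was -0.01, with a 95% confidence interval from -0.39 to 0.38, and Control 2 lay below the background gauge. Bmp2, an endothelial inducer of hepcidin, stood at 4.82, 5.22, 5.73 and 5.69 in LKB1 KO 1 to 4 and at 5.92, 5.46, 5.60 and 5.71 in Control 1 to 4. LKB1 KO 1 and LKB1 KO 2 lay below all Control arrays, and the other LKB1 KO arrays among them (difference -0.31, SE 0.21, limma adjusted p = 0.588).

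Both transcription factor genes of the sinusoid-specific class are also expressed outside endothelium, Gata4 in hepatocytes and stellate cells and Maf in macrophages. In sinusoidal cells GATA4 keeps the sinusoidal rather than the continuous capillary state in the mouse. Gata4 averaged 5.71 ± 0.22 log2 units in LKB1 KO livers and 5.85 ± 0.23 in Control livers (SD, n = 4 each; interval of the difference -0.49 to 0.21). Maf gave 6.65, 6.32, 5.96 and 6.37 in LKB1 KO 1 to 4, against 6.98, 6.82, 6.81 and 7.59 in Control 1 to 4. The groups did not overlap, and the difference of -0.72 (SE 0.20) did not pass (limma adjusted p = 0.119). Without Control 4, the highest array, it was -0.54.

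Among the pan-endothelial genes 1 of 18 fell, 0 rose and 17 did not pass, with a median difference of -0.17 log2 units (-0.27 without Control 3, and -0.27 over members above the background gauge). Over all genes 1.49% fell. A lower mean was seen in 14, beside 47.1% of all genes. The groups did not overlap in 5, of which 4 were lower in LKB1 KO (Kdr, Ptprb, Erg and Eng) and 1, Nos3, was higher. Over all genes the groups were apart in 5.50% downwards and 3.34% upwards. The gene that fell, Kdr, was also chosen as a marker of sinusoidal endothelial cells, so the split of falls between the classes depends on its placement.

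The receptor genes of the VEGF and angiopoietin systems all had lower means in LKB1 KO livers, by very unequal amounts. Kdr encodes VEGFR2, the main signalling receptor for VEGF-A. It measured 5.68, 5.25, 5.46 and 5.59 log2 units in LKB1 KO 1 to 4, against 6.44, 6.33, 6.18 and 5.90 in Control 1 to 4. The lowest Control array was 0.22 above the highest LKB1 KO array. Kdr (Entrez Gene 16542) fell by 0.72 log2 units (SE 0.15, interval -1.06 to -0.38, limma adjusted p = 0.0434). Leaving out any array other than Control 4 ended the call (adjusted p up to 0.130), as did quantile normalization and centring of the arrays on their medians. Flt1, the gene of the VEGF trap receptor VEGFR1, stood at 4.96 to 5.41 in LKB1 KO and 5.05 to 5.72 in Control livers, with a difference of -0.14 (interval -0.55 to 0.27).

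Tek encodes the angiopoietin receptor TIE2. It measured 3.64, 3.55, 4.59 and 4.56 log2 units in LKB1 KO 1 to 4, against 5.19, 4.73, 4.55 and 4.79 in Control 1 to 4. LKB1 KO 1 and LKB1 KO 2 lay below the background gauge, while LKB1 KO 3 and LKB1 KO 4 reached the lowest Control array. The difference of -0.73 (SE 0.26) did not pass (limma adjusted p = 0.224). Tie1, its orphan partner receptor gene, differed by -0.12 (SE 0.24). Ptprb encodes VE-PTP, a phosphatase that acts on TIE2 and VE-cadherin. Its values were 6.73, 6.25, 6.92 and 6.85 in LKB1 KO 1 to 4 and 7.49, 7.30, 7.13 and 7.37 in Control 1 to 4. Every LKB1 KO array of Ptprb was lower, with a difference of -0.63 (SE 0.16, limma adjusted p = 0.0886).

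Genes of the endothelial junction and surface had a median difference of -0.10 log2 units, and 0 of 5 passed the limma test (0 also at an unadjusted p under 0.05). Cdh5, the VE-cadherin gene, gave 7.46, 7.19, 7.24 and 7.61 log2 units in LKB1 KO 1 to 4, against 7.75, 7.17, 7.34 and 7.64 in Control 1 to 4. Pecam1, the CD31 gene, gave 6.64, 6.46, 6.29 and 6.53 in LKB1 KO 1 to 4 and 6.47, 6.36, 6.74 and 6.68 in Control 1 to 4. Both sets of arrays overlapped over most of their range. The 95% confidence interval of the difference ran from -0.46 to 0.26 for Cdh5 and from -0.38 to 0.22 for Pecam1. The tight junction gene Cldn5 differed by -0.12 (SE 0.14), the adhesion gene Esam by 0.14 (SE 0.21) and the sialomucin gene Emcn by -0.34 (SE 0.19). Cldn5 fell below the background gauge in 2 LKB1 KO arrays and Emcn in 1, so their differences are uncertain in size.

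Of the remaining signalling genes, Eng and Nos3 differed in opposite directions. Eng encodes endoglin, a coreceptor for BMP9 and TGF-beta. It measured 6.72, 6.45, 6.72 and 6.95 log2 units in LKB1 KO 1 to 4, against 7.17, 7.01, 7.12 and 7.21 in Control 1 to 4. The groups were only 0.06 apart (difference -0.42, SE 0.13, limma adjusted p = 0.177). Nos3, the endothelial nitric oxide synthase gene, gave 4.64, 4.08, 4.28 and 4.01 in LKB1 KO 1 to 4 and 3.85, 4.00, 3.75 and 3.75 in Control 1 to 4. LKB1 KO 4 and Control 2 nearly touched (difference 0.42, SE 0.16, limma adjusted p = 0.260). Control 3 and Control 4 lay just above the background gauge, so the size of that difference is uncertain. The secreted vessel gene Egfl7 differed by -0.38 (SE 0.21), the guidance receptor gene Robo4 by -0.19 (SE 0.15) and the Notch ligand gene Dll4 by 0.02 (SE 0.14).

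Erg encodes the ETS factor that maintains endothelial identity. It stood at 4.82, 4.25, 4.32 and 4.81 log2 units in LKB1 KO 1 to 4 and at 5.02, 5.17, 5.03 and 4.98 in Control 1 to 4. The Control arrays were tightly grouped and the LKB1 KO arrays were lower and more spread (difference -0.50, SE 0.16, limma adjusted p = 0.171). Sox18, a SOX factor gene of vessel development, ranged from 2.82 to 4.45 in LKB1 KO and from 4.07 to 4.87 in Control livers. In 3 LKB1 KO arrays it lay below the background gauge, and its difference was -0.69 (SE 0.30, limma adjusted p = 0.361). Sox17, below the gauge in every array, differed by 0.03 (SE 0.14).

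The classes were then set side by side in each array, as a description without a test, because their members were chosen with earlier results known. Each gene was expressed as a deviation from its mean over the 8 arrays, and the median over the class was taken. For the sinusoid-specific class this was -0.17, -0.32, -0.25 and -0.22 log2 units in LKB1 KO 1 to 4, against 0.34, 0.10, 0.18 and 0.22 in Control 1 to 4. The arrays of the groups were apart. For the pan-endothelial class it was -0.19, -0.13, -0.18 and 0.06 in LKB1 KO 1 to 4 and 0.21, -0.03, 0.10 and 0.25 in Control 1 to 4. There LKB1 KO 4 lay above Control 2. The difference of these medians within an array, sinusoid-specific minus pan-endothelial, was 0.020, -0.191, -0.068 and -0.284 in LKB1 KO 1 to 4, against 0.136, 0.134, 0.081 and -0.025 in Control 1 to 4. The groups overlapped in it, since LKB1 KO 1 lay above Control 4. The median difference of the sinusoid-specific class was 0.27 log2 units below that of the pan-endothelial class (-0.44 against -0.17, -0.27 between them). That gap was between -0.33 and -0.18 with single arrays left out, and -0.19 over members above the background gauge. It was -0.33 when Flt4, Gata4, Maf and Bmp2 were left off the sinusoid-specific class. Of these, Gata4 (-0.14), Bmp2 (-0.31) and Flt4 (-0.42) differed less than the class median, and Maf (-0.72) more. That smaller class still held Mrc1, Fcgr2b and Stab1, which macrophages also express, and the gap without them was not examined. The classes also differed in level, with median Control means of 6.04 log2 units (sinusoid-specific) and 4.72 (pan-endothelial). Genes with any array below the gauge were 3 of the 16 sinusoid-specific and 6 of the 18 pan-endothelial genes. RMA compresses differences of dim genes, and the part of level in the gap was not tested.

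**Figure D3:**
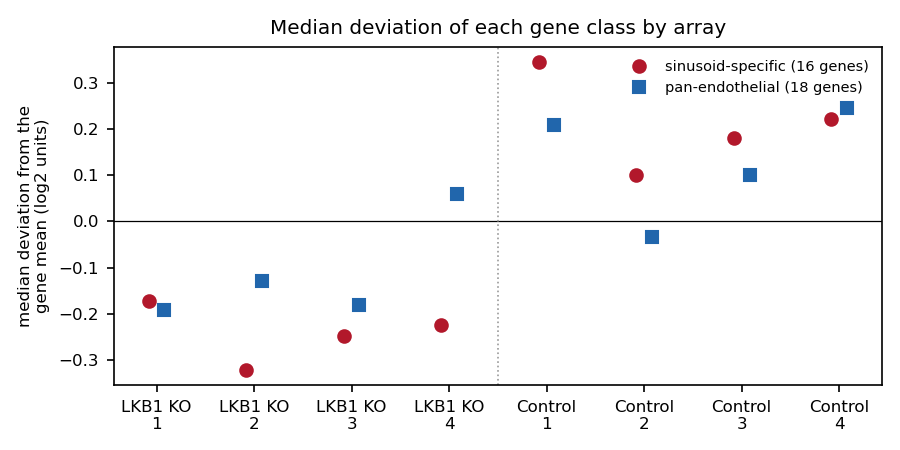
Median deviation from the gene mean, in log2 units, over 16 sinusoid-specific genes (circles) and 18 pan-endothelial genes (squares) in each array, LKB1 KO at left. Sinusoid-specific medians lie between -0.32 and -0.17 in LKB1 KO and between 0.10 and 0.34 in Control arrays, while the pan-endothelial medians of LKB1 KO 4 and Control 2 cross.

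A test of single genes against the pan-endothelial class, chosen after the data had been seen, gave no call. With each array centred on the median of the 18 pan-endothelial genes, 0 of 16 sinusoid-specific genes passed (limma, adjusted over 23185 genes, adjusted p from 0.150 to 0.966). At an unadjusted p under 0.05, 6 were lower and 1, Wnt9b, was higher. The shares of all genes given above come from the fit without this centring and do not apply to these counts. Clec4g stood at -0.66 (SE 0.22, adjusted p = 0.167) and Mrc1 at -0.68 (SE 0.23, adjusted p = 0.161) in the centred fit. Without the centring the SE was 0.12 for Clec4g and 0.14 for Mrc1, so the centred fit was less precise for them. A fall of the sinusoid-specific genes beyond that of the pan-endothelial genes is thus not established for any single gene, nor is it excluded.

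The members varied within groups as well. Control 2 held the lowest Control value of 19 of the 34 genes, and Control 1 the highest of 14. Among the LKB1 KO arrays, LKB1 KO 2 held the lowest value of 13. One extreme was Egfl7, at 5.75 log2 units in Control 2 and from 6.49 to 6.60 in the other Control arrays. Without Control 2, the median difference of the sinusoid-specific class was -0.55 log2 units.

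Ligands and partners of these receptors were taken from lists made by function. Of 11 measured genes of VEGF ligands, angiopoietins and coreceptors, 1 rose, 0 fell and the median difference was -0.03. The rise was in Vegfd, a ligand gene of VEGFR3 (and in humans of VEGFR2), at 4.46, 4.63, 4.65 and 4.56 log2 units in LKB1 KO 1 to 4, against 3.91, 3.82, 3.95 and 4.02 in Control 1 to 4. Its groups were well apart (difference 0.65, SE 0.11, limma adjusted p = 0.0176), but the call ended without LKB1 KO 3, LKB1 KO 4, Control 1 or Control 2 (adjusted p up to 0.0648). Pgf, Angpt1 and Angpt2 lay below the background gauge in every array. None of 15 Notch pathway genes passed (median -0.06), Dll1 standing at 0.48 (SE 0.25) and Notch2 at -0.19 (SE 0.11), and 0 of them had an unadjusted p under 0.05.

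Of 22 BMP pathway genes and targets, 1 rose and 1 fell, with a median difference of -0.06 log2 units (4 lower and 2 higher at an unadjusted p under 0.05). Over all genes 0.487% rose and 1.49% fell. Bmp6 lay below the background gauge in every array. Id1, an early BMP target that endothelium and hepatocytes express, averaged 7.36 ± 0.27 in LKB1 KO livers and 6.28 ± 0.39 in Control livers (SD, n = 4 each; difference 1.08, SE 0.21, limma adjusted p = 0.0250). Tmprss6, a hepatocyte protease gene that restrains hepcidin, averaged 7.31 ± 0.03 in LKB1 KO livers and 7.92 ± 0.18 in Control livers (difference -0.61, SE 0.13, limma adjusted p = 0.0347). Neither call survived all single arrays left out: that of Id1 ended without LKB1 KO 1, 2 or 3 or Control 1 or 2 (adjusted p up to 0.0816), and that of Tmprss6 without any array other than Control 3 (up to 0.107).

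Of 25 Wnt pathway genes and targets, 3 fell and 0 rose, with a median of -0.11 log2 units (7 lower and 2 higher at an unadjusted p under 0.05). They were the pericentral hepatocyte genes Cyp2e1 (difference -1.09, SE 0.13), Cyp1a2 (-1.38, SE 0.17) and Glul (-0.71, SE 0.13), which are known targets of beta-catenin, with limma adjusted p of 0.00278, 0.00324 and 0.0239. The Wnt ligand genes of endothelium beside them did not pass, as given above. The Cyp1a2 call ended without moderation of variances (adjusted p = 0.0552). The Glul call ended without any array other than LKB1 KO 2 or Control 4 (adjusted p up to 0.0836). Among 18 other regulators of endothelium, 1 fell, Prox1 (difference -0.90, SE 0.18, limma adjusted p = 0.0310), a lymphatic factor that hepatocytes also express. That call held with Control 1 left out and ended with any other single array left out (adjusted p up to 0.0830).

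Genes of other endothelium and of other liver cells stood as follows in the same arrays. None of 16 measured genes of large vessels and continuous capillaries passed, with a median difference of 0.04 log2 units and 8 of 16 lower in LKB1 KO (limma, with 2 lower and 2 higher at an unadjusted p under 0.05). The 2 with the smallest p were Ackr1 (-0.46, SE 0.13) and Sele (0.35, SE 0.14), and 6 of the 16 lay below the background gauge in every array. Ackr1 is among those 6, and Sele lay below the gauge in every array but LKB1 KO 2, so the sizes of both differences are uncertain. The log2 summed level of that list ran from 8.66 to 9.04 in LKB1 KO and from 8.71 to 8.97 in Control arrays. Of 5 lymphatic genes, all had a lower mean and 1, Prox1, fell.

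Sinusoid-specific genes that macrophages also express include Mrc1, Fcgr2b, Stab1 and Maf. Of 17 measured Kupffer cell and macrophage markers 1 fell and 16 did not pass, where 1.49% of all genes fell. All 17 had a lower mean in LKB1 KO livers, beside 47.1% of all genes, with a median difference of -0.43 log2 units. At an unadjusted p under 0.05, 9 of the 17 were lower and 0 higher, where 1770 of 23185 genes were lower. In 7 of the 17 all LKB1 KO arrays lay below all Control arrays, beside 5.50% of all genes. The fall was in Csf1r, the receptor gene of a macrophage growth factor (difference -0.78, SE 0.16, limma adjusted p = 0.0378). The Csf1r call ended without any array other than Control 2 (adjusted p up to 0.110). The log2 summed level of the markers ran from 10.03 to 10.43 in LKB1 KO and from 10.41 to 11.12 in Control arrays, and Ccr2 lay below the background gauge in every array. The part of macrophages in the differences of Mrc1, Fcgr2b, Stab1, Maf and the other sinusoid-specific genes was not tested.

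Of 15 stellate cell markers 11 had a lower mean and 0 passed (median -0.26, 5 lower at an unadjusted p under 0.05), with Rgs5 at -1.02 (SE 0.26) and Colec11 at -0.69 (SE 0.19), and their log2 summed level ran from 9.42 to 9.96 in LKB1 KO and from 9.81 to 10.2 in Control arrays. Of 12 hepatocyte markers 10 had a lower mean and 0 passed (median -0.12, 3 lower at an unadjusted p under 0.05), Fga standing at -0.51 (SE 0.11) and Fgb at -0.42 (SE 0.11), with a summed level from 15.1 to 15.2 in LKB1 KO and from 15.3 to 15.4 in Control arrays. All 9 genes of dividing cells had a higher mean in LKB1 KO livers (median 1.21), and Ccnb2 (1.54, SE 0.29) and Plk1 (1.64, SE 0.36) rose. Both calls ended without LKB1 KO 1, LKB1 KO 3, LKB1 KO 4, Control 1 or Control 4, and that of Plk1 also without Control 2 (adjusted p up to 0.0845 and 0.135). Their log2 summed level ran from 10.1 to 11.2 in LKB1 KO and from 8.75 to 10.2 in Control arrays. The part of cell division in the endothelial differences was not tested.

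**Figure D4:**
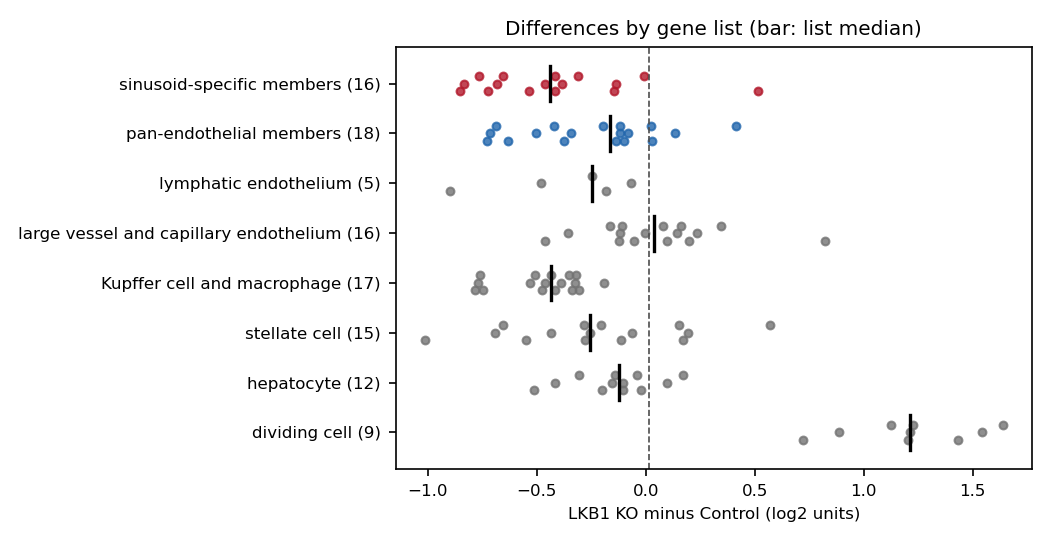
Difference of each gene, LKB1 KO minus Control, in log2 units, for the 2 endothelial classes and 6 marker lists, with the number of measured genes in parentheses, a bar at each list's median and a dashed line at the median of all genes (0.02). Medians are -0.44 for sinusoid-specific, -0.17 for pan-endothelial, 0.04 for large vessel and capillary, -0.43 for macrophage and 1.21 for dividing cell genes.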

How the data were processed

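The values are log2 expression levels, 1 per gene and array, which the authors had normalized before they were deposited. RMA and Partek are named, without versions, per the submitters' processing notes. The genome build was not given, and no coordinates are used. Per the labels' protocols, total RNA was extracted with TRIzol, amplified with the Ovation PicoSL kit and labelled with biotin. The platform annotation gave exactly 1 symbol to 23185 of 25206 rows and none to the other 2021. No symbol was repeated, and 0 rows carried several symbols. Groups and replicate numbers came from the titles.

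Each gene was fitted with limma 3.58.1 in R 4.3.3 (lmFit, eBayes, group as the single term, no filter), with Benjamini-Hochberg adjustment over the 23185 genes and a two-sided threshold of 0.05. The p-values measure the spread between 4 arrays per group, which may be technical, since no label says that these came from separate animals. The number of arrays limits the precision. RMA compresses differences of dim genes, and probes may pick up related transcripts.

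The members, classes and lists were chosen with earlier results of these data known. Lists are described by counts and medians, without a test of the list. By rule, every member is given, and of each other list up to 5 genes past the threshold, or the 2 with the smallest p. Lists described in fewer words (cholangiocyte, lymphocyte, neutrophil, erythroid and platelet markers) stand in the closing section. Alternatives were a replicate block, single arrays left out, LKB1 KO 2 and Control 4 left out together, quantile normalization, median centring, a trended and robust prior, leaving out the dimmest 1 of 3 bins of genes, no moderation, array weights, all rows, an adjusted p under 0.01, a fold of at least 1.5, bright members only and a stricter sinusoid-specific class. Protein and promoter sequences were not used here.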

Additional observations from a re-analysis of the deposited data

Results flagged for a closer look

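Egfl7 in Control 2 stood at 5.75 log2 units, against 6.49 to 6.60 in the other Control arrays, a gap of 0.869 of the group's range, which is past Dixon's 95% critical value for 4 arrays. It was the 1 such value among 68 groups of 4 arrays examined, where about 1 in 20 passes by chance. Without Control 2 the difference of Egfl7 was -0.58 log2 units, against -0.38 with all arrays.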

How the results depend on the processing

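The median differences of both classes and the gap between them kept their sign under every alternative listed above. Centring on the pan-endothelial genes was added after the data were seen and sets the pan-endothelial median itself. It shifts all genes of an array alike, so it cannot change the gap, and the sinusoid-specific median kept its sign in it. The sinusoid-specific median lay between -0.55 (without Control 2) and -0.43 with single arrays left out, and between -0.50 and -0.42 otherwise, apart from -0.27 in that centred fit. The pan-endothelial median lay between -0.27 and -0.13 with single arrays left out, and between -0.27 and -0.15 otherwise. The count of endothelial genes that fell, 5 as reported, ran from 2 to 5 with single arrays left out, was 2 without moderation of variances and 1 (Clec4g) at an adjusted p under 0.01, and reached 6 with the dimmest genes left out, the trended and robust prior or array weights, where Stab2 joined. It was 0 with arrays centred on the pan-endothelial genes. No endothelial gene rose under any of them. Over all genes, 458 as reported, the count ran from 213 to 491 with single arrays left out, and was 97 without moderation and 721 with array weights. Clec4g passed under the other 17 alternative fits, and Mrc1 under all of these but the fit without moderation (adjusted p = 0.0603). Centred on the pan-endothelial genes neither passed (adjusted p = 0.167 and 0.161). Of the calls named, those of Clec4g, Gpr182, Vegfd and Cyp2e1 held without moderation and the others ended. Deviations of same-numbered arrays of the groups had correlations from -0.11 to 0.18, beside -0.18 to 0.24 for arrays of different numbers. The labels state no pairing, and so few weak correlations cannot exclude one. With the replicate block 2 endothelial genes fell, Clec4g and Mrc1, and 268 genes passed in all. The signs of some small differences turned with single arrays left out: Lyve1 ran from -0.38 to 0.15, Wnt2 from -0.14 to 0.078, Tie1 from -0.27 to 0.052, Esam from -0.013 to 0.28, Sox17 from -0.071 to 0.095 and Dll4 from -0.052 to 0.089. Without both LKB1 KO 2 and Control 4, Lyve1 (0.098), Wnt2 (0.14) and Cdh5 (0.016) turned, as did Sox17 (-0.024) and Dll4 (-0.018) with quantile normalization, Sox17 (-0.0072) and Dll4 (-0.013) with median centring, and Wnt2 (0.076) with array weights. Centred on the pan-endothelial genes, Lyve1 (0.029), Gata4 (0.036) and Wnt2 (0.17) turned. None of those genes passed in any fit, and the cause of these changes was not tested. Weak signal limits Wnt9b, Sox17 and Dll4, whose means lay below the background gauge. Clec1b, Wnt2, Tek, Emcn, Cldn5 and Sox18 also had at least 1 array below it.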

Other observations

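Markers of blood cells and bile ducts stood as follows in the same livers. Among 6 measured cholangiocyte markers 1 rose, Prom1 (difference 2.21 log2 units, SE 0.34, limma adjusted p = 0.00967), and the median was 0.05. The Prom1 call ended without moderation of variances (adjusted p = 0.121). None of 11 lymphocyte markers passed (limma, median 0.15, 1 higher at an unadjusted p under 0.05), with Cd8a at 0.44 (SE 0.15) and Gzma at 0.41 (SE 0.23), and both lay below the background gauge in every array. None of 8 neutrophil markers passed (median -0.21, 3 lower and 1 higher at an unadjusted p under 0.05), with S100a8 at -1.07 (SE 0.33) and S100a9 at -1.07 (SE 0.34). Among 3 measured erythroid genes Alas2 fell (-1.03, SE 0.23, limma adjusted p = 0.0471), a call that ended without any array other than Control 4 (adjusted p up to 0.141). All 4 measured platelet markers had a higher mean in LKB1 KO livers and 0 passed (median 0.22, also 0 at an unadjusted p under 0.05), with Ppbp at 0.32 (SE 0.23) and Gp9 at 0.26 (SE 0.21), while Clec1b, which platelets also express, stood at -0.42 (SE 0.20).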
